A study of Mus musculus with 37 samples.

Results

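The course of experimental type 1 diabetes in mouse podocytes was followed by comparing 5 libraries made after 24 weeks of streptozotocin (STZ) diabetes with 5 libraries made after 3 weeks of it. These 10 of the 37 libraries in the series were chosen by their labels alone. The STZ 24-week mice were 8 months old, and the STZ 3-week mice were 3 months old. Beside them stand 5 untreated libraries of the 24-week arm (8 months) and 4 untreated libraries of the 3-week arm (3 months). All 4 groups were C57BL/6 mice labelled as podocyte samples from kidney. The libraries hold TRAP RNA: translating ribosome affinity purification pulls down tagged ribosomes of one cell type with the RNA bound to them. Duration of diabetes and age change together between the STZ groups, so both arms differ in age by the same step. All diabetic mice received STZ, so the drug and the diabetes cannot be told apart.

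Podocytes cover the outside of glomerular capillaries with interlocking foot processes, which are held by an actin skeleton and joined by the slit diaphragm. They are long-lived cells that hardly divide, and in diabetic kidney disease they lose foot process structure and finally detach. STZ destroys the insulin-producing beta cells of the pancreas and is also a DNA-alkylating agent that tubule cells take up through the glucose transporter GLUT2. Bulk TRAP libraries also carry RNA of neighbouring kidney cells, and in them fewer cells of a type and less RNA per cell cannot be told apart.

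Library totals were 10720194 to 18243370 counts in STZ 24-week libraries, 10673102 to 24685574 in STZ 3-week libraries, 14126122 to 17374563 in untreated 24-week libraries and 14005245 to 19099900 in untreated 3-week libraries. Levels are given as counts per 1000000 of the library total (CPM), and fold changes come from one edgeR quasi-likelihood fit of all 19 libraries. A gene is called when its p-value, adjusted over all genes tested by the Benjamini-Hochberg method, is under 0.05. No label states that replicates come from separate mice, and the p-values then cover only the spread of these libraries, which may be technical. The podocyte label was met by its markers: Nphs1 had at least 331 CPM in every library of this model, against 13.9 CPM in the whole-kidney library of the series.

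The libraries of the 2 times differed in a way that touches every comparison of them. Of the mitochondrially encoded genes, 4 were nearly absent from every 3-week library, STZ or untreated. mt-Co2, a cytochrome c oxidase subunit, had 19.6, 18.4, 15.2, 20.8 and 18.4 CPM in STZ 24-week libraries, against 0.324, 0.323, 0.105, 0 and 0.0937 CPM in STZ 3-week libraries. Untreated libraries split alike, with 10 to 35.5 CPM at 24 weeks and 0 to 0.209 CPM at 3 weeks. mt-Atp6 spanned 4.4 to 19.3 CPM over the 10 libraries of 24 weeks and 0 to 0.209 CPM over the 9 libraries of 3 weeks. In the TRAP libraries of the type 2 model of this series mt-Co2 lay at 4.97 to 29.3 CPM, so the 3-week libraries are the ones that stand apart. mt-Co3 and mt-Nd4l, subunits of cytochrome c oxidase and of complex I, followed the same split. The intergroup step was as large without STZ as with it: the log2 change of mt-Co2 was 6.64 (SE 0.54, adjusted p = 1.54e-07) in STZ libraries and 8.14 (SE 0.68, adjusted p = 2.58e-07) in untreated libraries.

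These 4 genes have near-identical copies elsewhere in the genome. Every 50-base word of the mt-Co2 transcript also occurs in an annotated nuclear gene, as do 99.5% of the words of mt-Atp6, whose copy Gm10925 lies on chromosome 1. Gm10925 itself had 5.27 to 9.05 CPM in STZ 24-week libraries and 0 to 0.274 CPM in STZ 3-week libraries. mt-Nd1, which shares no such word with another gene, had 786, 496, 638, 740 and 588 CPM in STZ 24-week libraries, against 544, 788, 781, 257 and 309 CPM in STZ 3-week libraries, and was not called (log2 change 0.34, adjusted p = 0.519). mt-Cytb, also without a shared word, was not called either (0.64, adjusted p = 0.156). The match was not complete: mt-Nd3 shares 98% of its words and was not called (log2 change -0.39, adjusted p = 0.798). A pair of short non-coding genes went the other way. Gm25732, annotated as a miRNA gene on chromosome 4, had 36.7 to 147 CPM over all 3-week libraries and at most 0.809 CPM over all 24-week libraries. n-R5-8s1, a 5.8S ribosomal RNA gene, was at 0 in all 10 libraries of 24 weeks, against 134 to 413 CPM in STZ 3-week libraries and 1.35 to 647 CPM in untreated 3-week libraries.

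**Figure D1:**
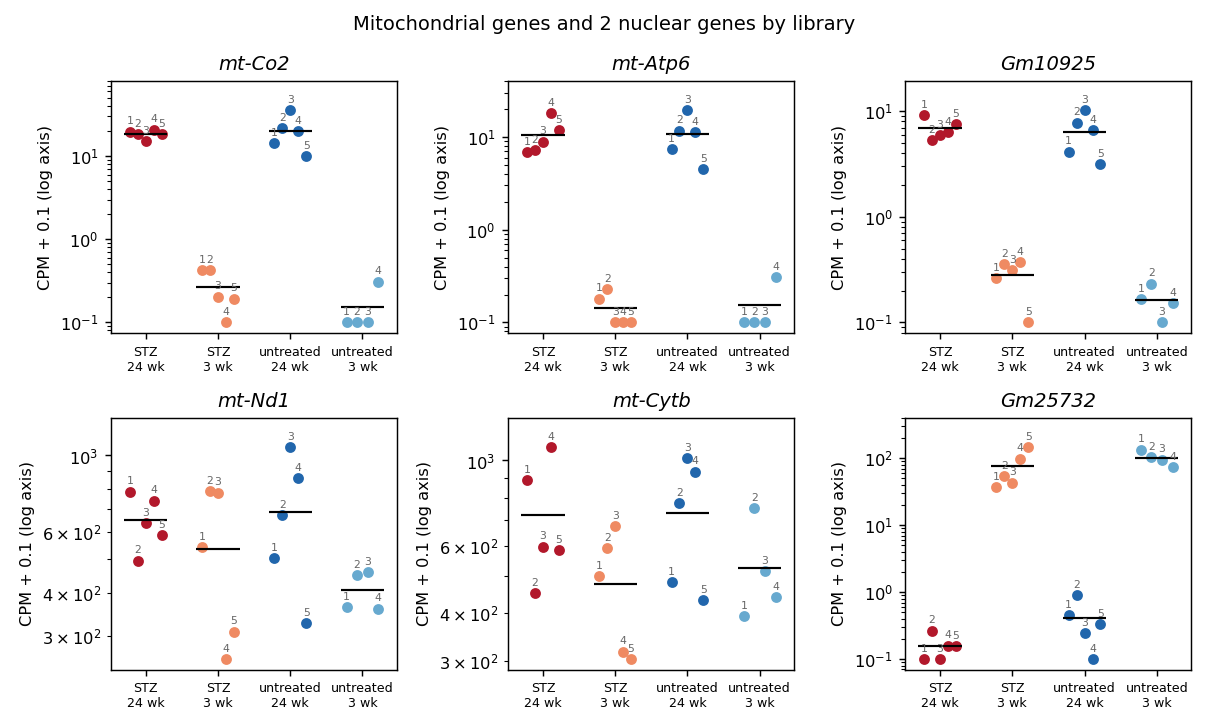
CPM plus 0.1 on a log axis in each library (points, numbered by replicate; black bar, mean) of the 4 groups. mt-Co2, mt-Atp6 and the nuclear copy Gm10925 are near 0 in all 3-week libraries and Gm25732 is near 0 in all 24-week libraries, while the ranges of mt-Nd1 and mt-Cytb overlap between times.

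The share of genes called in the STZ comparison was 10.5% among 8787 genes with no shared word, and 20.8% among 643 genes with over 50% of their words shared. In untreated libraries it was 2.92% and 14.8%. Pseudogenes were called in 140 of 660 cases, 124 of them higher at 24 weeks, against 1652 of 14159 protein-coding genes. Direction also went with listed gene length. Among the 3256 shortest genes (up to 1830.6 bases), 286 were called higher and 78 lower in STZ libraries, and 180 and 28 in untreated libraries. Among the 3256 longest (over 6442.8 bases), the counts were 100 and 332 in STZ libraries, and 11 and 98 in untreated libraries. The part of gene length, library or read handling in any change that untreated libraries also show was not tested.

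The STZ comparison called 1861 of 16279 genes, which is 11.4%: 884 were higher at 24 weeks (5.43%) and 977 were lower (6.00%). In untreated libraries 603 genes were called (3.70%), 351 higher (2.16%) and 252 lower (1.55%). Scaling by library totals turned that untreated split to 77.6% higher, and limma on the deposited FPKM to 82.7% higher, against 58.2% here. For 10.3% of the genes tested the STZ 24-week and STZ 3-week libraries did not overlap in CPM. Called in both comparisons were 382 genes, which is 20.5% of the STZ calls and 63.3% of the untreated calls, and 379 of them moved the same way. Of the 1861 STZ calls, 1766 (94.9%) had the same sign of change in untreated libraries. This share was not taken over all genes tested, and both comparisons carry the library difference between the 2 times. The difference between the changes in the STZ and untreated arms was called for 0 genes (0%) by edgeR's quasi-likelihood test, with 1092 at an unadjusted p under 0.05 and a lowest adjusted p of 0.125. DESeq2 called 64 such genes (9 with a positive and 55 with a negative difference, STZ minus untreated), limma on FPKM called 4, and edgeR on all 36 TRAP libraries called 14. The negative differences by DESeq2 reached -8.71 on the log2 scale. That of Eda2r, a gene near 0 CPM in untreated 3-week libraries, was -7.1. How many of the 55 rest on levels near 0 was not counted.

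**Figure D2:**
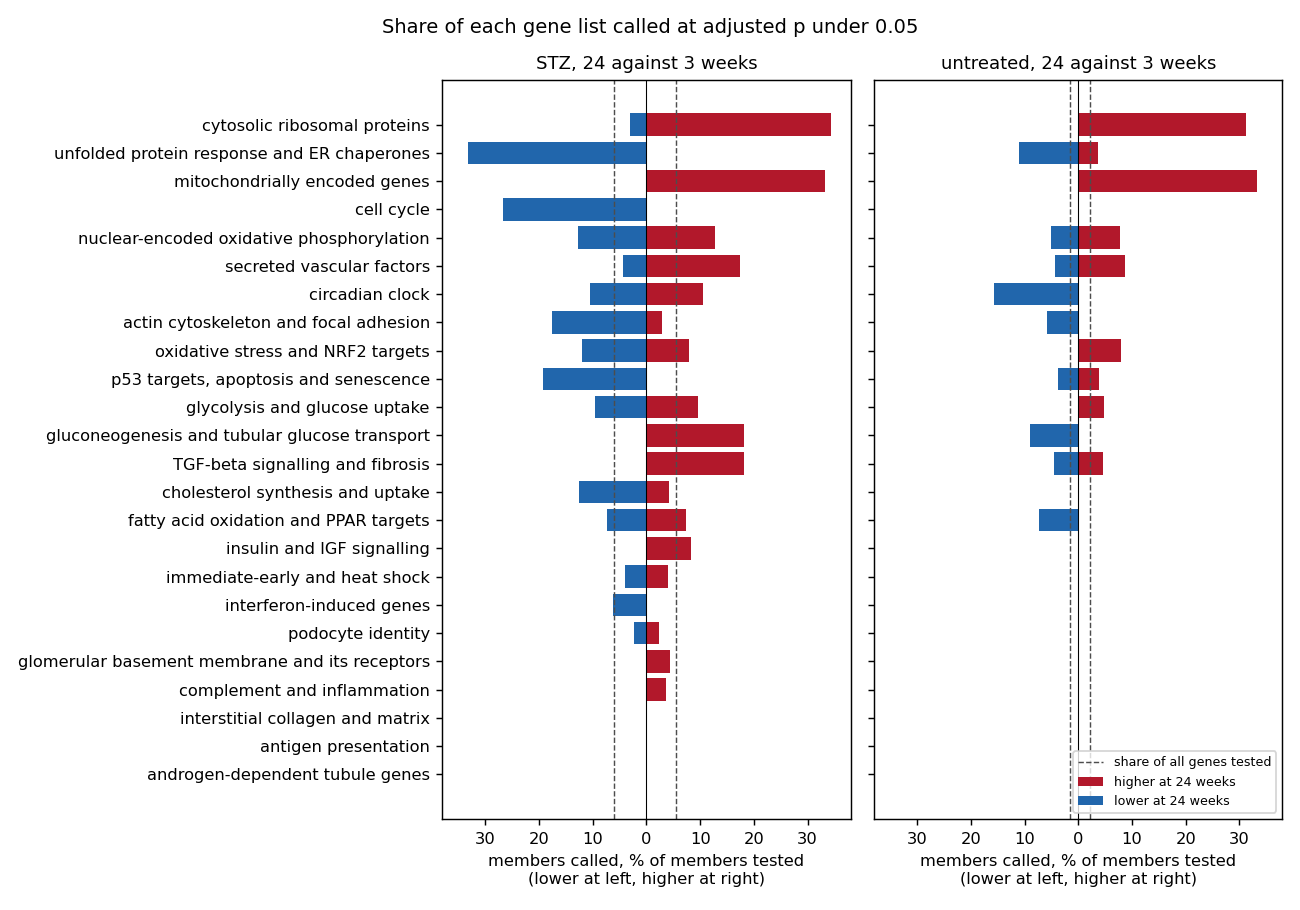
Members of each gene list called higher (right, red) or lower (left, blue) at 24 weeks, in percent of the members tested, for STZ libraries (left panel) and untreated libraries (right panel). Dashed lines mark the share of all genes tested (5.43% higher and 6.00% lower in STZ, 2.16% and 1.55% in untreated): cell cycle genes were called lower in STZ libraries and not called in untreated ones.

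Genes of dividing cells were lower after 24 weeks of STZ than after 3 weeks. Of 30 cell cycle genes tested, 8 fell (Rrm2, Top2a, Mcm6, Mki67, Mcm2, Mcm4, Cenpe and Cdk1) and 0 rose, and 1 of the 30 had a positive change. The share called was 26.7%, against 11.4% of all genes tested. The list's median log2 change was -1.32 in STZ libraries, against 0.03 for all genes tested, and 0.23 in untreated libraries, where edgeR called 0 members and 3 had an unadjusted p under 0.05. Mki67, the proliferation marker, had 15.1, 8.54, 13.6, 14 and 6.91 CPM in STZ 24-week libraries, against 42.5, 33.7, 45.1, 31.3 and 33.7 CPM in STZ 3-week libraries. All 5 STZ 3-week libraries lay above all others of this model, since untreated libraries had 4.8 to 18.1 CPM at 24 weeks and 2.86 to 12.1 CPM at 3 weeks. The log2 change of Mki67 was -1.65 (SE 0.34, adjusted p = 0.00274) in STZ libraries and 0.44 (SE 0.36, adjusted p = 0.582) in untreated libraries. Their difference was -2.09 (SE 0.49), with an adjusted p of 0.224 by edgeR and 0.0207 by DESeq2.

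Top2a, the topoisomerase that untangles DNA in mitosis, averaged 4.15 ± 1.73 CPM in STZ 24-week libraries and 21.9 ± 6.9 CPM in STZ 3-week libraries (SD, n = 5 each), a log2 change of -2.38 (SE 0.40, adjusted p = 0.000526). Untreated libraries lay between 1.06 and 5.87 CPM, overlapping the 2.18 to 5.95 CPM of STZ 24-week libraries. Rrm2, the small subunit of ribonucleotide reductase that makes DNA precursors, had 1.4, 4.1, 4.45, 3.04 and 2.36 CPM in STZ 24-week libraries, against 26.9, 21.5, 21.8, 14.1 and 11.1 CPM in STZ 3-week libraries (log2 change -2.58, adjusted p = 0.00026). Mcm6, a subunit of the replicative helicase, fell by 1.41 on the log2 scale (adjusted p = 0.000862). Uhrf1, which keeps DNA methylation through replication, was outside the list and fell by 1.98 (adjusted p = 0.00361), with 2.74 to 7.07 CPM in STZ 24-week libraries and 7.81 to 23.4 CPM in STZ 3-week libraries. Kpna2, an importin that carries cargo into the nucleus, had 9.33 to 14.3 CPM and 15.7 to 19.7 CPM and was not called in STZ libraries (-0.54, adjusted p = 0.167), whereas it rose in untreated ones (adjusted p = 0.0161), and 62.6% of its words occur in other genes. Which cells carried these transcripts was not tested. When STZ 3-week libraries 1 to 3 were left out, 1 cell cycle gene remained called and the median was -0.89.

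The promoters of 3 of the cell cycle genes that fell are shown because they hold 2 short motifs known from genes switched on in dividing cells. Capitals mark the CCAAT box (CCAAT, either strand) and the cell cycle genes homology region (CHR, TTTGAA, either strand), over the 250 bases before the transcription start, from RefSeq on GRCm38.p6. Mki67 lies at chr7:135716380-135716629 (minus strand), Top2a at chr11:99024190-99024439 (minus strand) and Cdk1 at chr10:69352913-69353162 (minus strand).
Mki67: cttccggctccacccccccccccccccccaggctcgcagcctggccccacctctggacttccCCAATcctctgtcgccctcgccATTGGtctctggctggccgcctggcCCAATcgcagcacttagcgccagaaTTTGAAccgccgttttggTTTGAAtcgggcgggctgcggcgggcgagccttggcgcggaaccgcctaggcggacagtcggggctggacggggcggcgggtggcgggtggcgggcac
Top2a: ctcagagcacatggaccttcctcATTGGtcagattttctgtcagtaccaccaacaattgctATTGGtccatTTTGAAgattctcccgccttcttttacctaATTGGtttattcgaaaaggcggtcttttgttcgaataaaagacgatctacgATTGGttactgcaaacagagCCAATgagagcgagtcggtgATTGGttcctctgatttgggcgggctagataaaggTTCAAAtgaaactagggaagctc
Cdk1: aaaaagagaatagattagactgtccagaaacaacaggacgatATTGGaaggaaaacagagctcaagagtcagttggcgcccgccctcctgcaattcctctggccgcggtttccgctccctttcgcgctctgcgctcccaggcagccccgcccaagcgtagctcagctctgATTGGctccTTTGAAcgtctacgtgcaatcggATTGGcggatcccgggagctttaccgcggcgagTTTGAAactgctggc
Each of the 3 holds 2 CHR matches, and Top2a holds 6 CCAAT boxes. Promoters were matched for 7 of the 8 genes that fell: a CHR match stood in 4 of them and a CCAAT box in 7. Among the 17 other members of the list with a promoter, 2 held a CHR match and 12 a CCAAT box. Of the 15666 promoters of this length matched to the table, 12.4% hold the CHR letters and 35.6% a CCAAT box. A match is a description of the letters only.

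A tubular injury gene and 5 genes of the p53 response were lower at 24 weeks of STZ as well. Havcr1, which encodes KIM-1, a marker of injured proximal tubule, had 2.52, 11.6, 17.5, 12.1 and 6.69 CPM in STZ 24-week libraries, against 82, 74.4, 101, 43.7 and 28.7 CPM in STZ 3-week libraries (chromosome 11, 46735080 to 46779578). The groups did not overlap, and untreated libraries lay at 2.83 to 21.1 CPM at 24 weeks and 1.19 to 6.85 CPM at 3 weeks, at the level of the STZ 24-week group. The log2 change was -2.64 (SE 0.55, adjusted p = 0.00357) in STZ libraries and 0.99 (SE 0.58, adjusted p = 0.412) in untreated libraries, a difference of -3.63 (SE 0.80; adjusted p = 0.194 by edgeR, 0.00118 by DESeq2). Without STZ 3-week libraries 1 to 3 the log2 change was -1.9 and was not called (adjusted p = 0.134).

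Of 26 genes of the p53, apoptosis and senescence list, 5 fell and 0 rose in STZ libraries, which is 19.2% against 11.4% of all genes tested. The list's median log2 change was -0.26 in STZ libraries and 0.07 in untreated libraries. Eda2r, a p53-induced receptor of the tumour necrosis factor family, had 1.87, 3.35, 5.53, 4.88 and 4.28 CPM in STZ 24-week libraries, against 17.7, 17.6, 17.9, 20.2 and 14.1 CPM in STZ 3-week libraries (log2 change -2.11, SE 0.57, adjusted p = 0.0171). Untreated libraries had 0 to 1.44 CPM at 24 weeks and 0 to 0.0663 CPM at 3 weeks, so STZ 24-week libraries still lay above all untreated ones. Eda2r rose in untreated libraries (adjusted p = 0.0209), by an amount that cannot be given because their 3-week levels are near 0. Ccng1, which encodes cyclin G1, a p53 target, had 344, 249, 269, 330 and 261 CPM in STZ 24-week libraries, against 525, 501, 530, 406 and 544 CPM in STZ 3-week libraries (log2 change -0.76, SE 0.15, adjusted p = 0.00214). Its untreated libraries spanned 188 to 238 CPM at 24 weeks and 138 to 255 CPM at 3 weeks. Mdm2, the ubiquitin ligase that degrades p53, had 76.7 to 93.5 CPM and 113 to 133 CPM in the STZ groups (log2 change -0.49, adjusted p = 0.00881), against 48.1 to 74.5 CPM in untreated libraries of both times. Plk2, a stress-induced kinase, fell by 1.1 (adjusted p = 0.00693), and Trp53inp1, a p53 cofactor, by 0.77 (adjusted p = 0.00785). Cdkn1a, the p53-induced cell cycle inhibitor p21, overlapped between the STZ groups (29.1 to 63.6 and 57.6 to 91.7 CPM) and was not called (-0.70, adjusted p = 0.572). In untreated libraries Cdkn1a had 11.6, 3.01, 6.09, 6.79 and 9.04 CPM at 24 weeks, against 102, 79.6, 5.85 and 2.25 CPM at 3 weeks (log2 change -2.87, adjusted p = 0.0338). The 2 high libraries of 3 weeks stood far above the other 2, which lay within or below the 24-week range. Eda2r and Cdkn1a were the list's 2 calls in untreated libraries. One of the 26 was called when STZ 3-week libraries 1 to 3 were left out, and 1 when STZ 24-week libraries 1 to 3 were; the medians were then -0.4 and -0.29. Eda2r was called in neither case (adjusted p = 0.155 and 0.22).

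**Figure D3:**
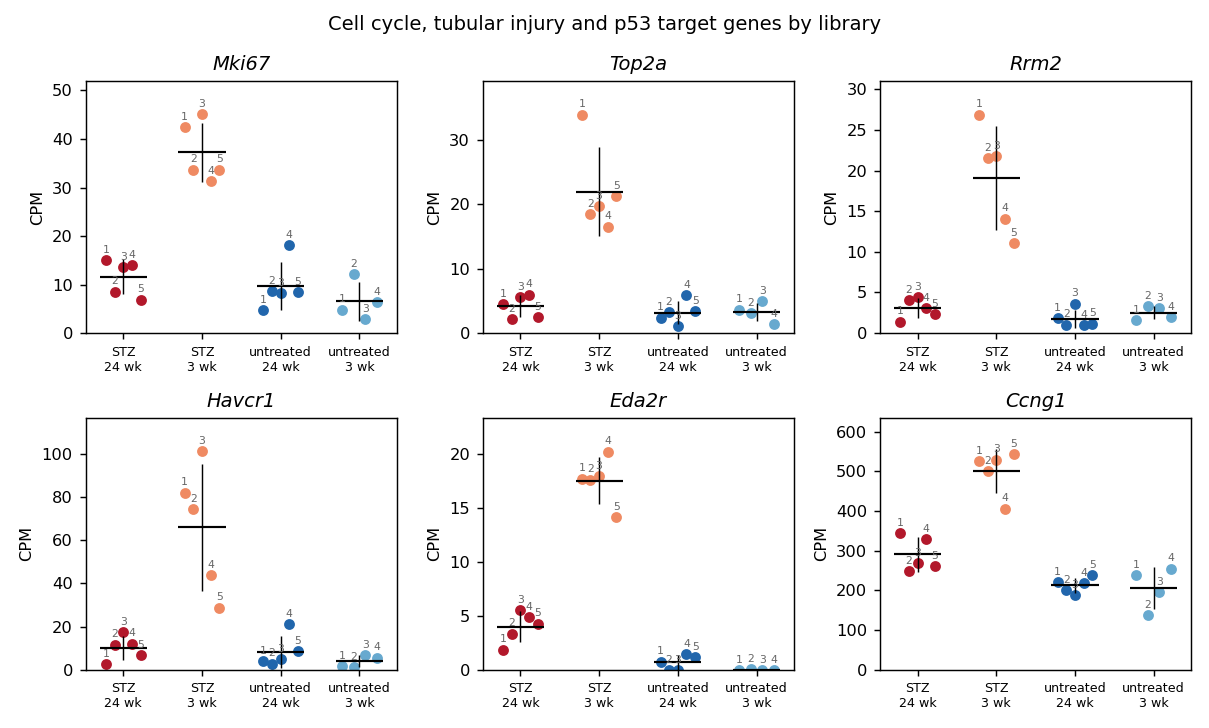
CPM in each library (points, numbered by replicate; bars, mean and SD) of the 4 groups for 3 cell cycle genes, the tubular injury gene Havcr1 and the p53 targets Eda2r and Ccng1. In each panel the 5 STZ 3-week libraries lie above the 5 STZ 24-week libraries.

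G6pc, Pck1 and Cyp27b1 were higher after 24 weeks of STZ than after 3 weeks. G6pc, glucose-6-phosphatase of gluconeogenesis, had 93.7, 173, 186, 90.4 and 105 CPM in STZ 24-week libraries, against 82.8, 55, 55.1, 27.3 and 46.9 CPM in STZ 3-week libraries (log2 change 1.34, SE 0.36, adjusted p = 0.0195; chromosome 11, 101367561 to 101377903). Untreated libraries changed the opposite way, with 80.3 to 191 CPM at 24 weeks and 129 to 636 CPM at 3 weeks (log2 change -1.67, SE 0.38, adjusted p = 0.0166). The STZ 3-week group was the lowest of the 4. The difference of the 2 changes was 3.00 (SE 0.52), with an adjusted p of 0.125 by edgeR, tied for the lowest of all genes, and 3.42e-05 by DESeq2.

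Pck1, the other committed enzyme of gluconeogenesis, had 1660, 1726, 3360, 897 and 1307 CPM in STZ 24-week libraries, against 911, 597, 619, 589 and 996 CPM in STZ 3-week libraries (log2 change 1.30, SE 0.32, adjusted p = 0.0102). The STZ groups overlapped through library 4 of 24 weeks. In untreated libraries Pck1 lay at 1274 to 2338 CPM at 24 weeks and 1997 to 4160 CPM at 3 weeks and was not called (-0.65, adjusted p = 0.33). Cyp27b1, the hydroxylase that makes active vitamin D in the proximal tubule, had 15, 38.1, 72.1, 21.4 and 29.2 CPM in STZ 24-week libraries, against 10.4, 3.81, 7.21, 1.58 and 2.44 CPM in STZ 3-week libraries (log2 change 2.83, SE 0.56, adjusted p = 0.00272; chromosome 10, 127048250 to 127053006). Untreated libraries had 6.07 to 39.4 CPM at 24 weeks and 14.2 to 41.2 CPM at 3 weeks, so again the STZ 3-week group was the low one. Gpt2, a mitochondrial alanine aminotransferase that feeds gluconeogenesis, went the other way, with 66.9, 58.9, 71.5, 39.9 and 50.3 CPM in STZ 24-week libraries, against 224, 202, 178, 91.7 and 84.2 CPM in STZ 3-week libraries (log2 change -1.38, SE 0.25, adjusted p = 0.00122). The untreated change of Gpt2 was 0.38 (adjusted p = 0.503). G6pc and Pck1 were the only called genes of the 11 (18.2%, against 11.4% of all genes tested) on the list of gluconeogenesis and tubular glucose transport, whose median was 0.04. Neither was called without STZ 3-week libraries 1 to 3 (log2 changes of 1.74 and 1.11, adjusted p = 0.0926 and 0.168) or without STZ 24-week libraries 1 to 3 (0.87 and 0.55, adjusted p = 0.372 and 0.478). Cyp27b1 was called without the first set (4.08, adjusted p = 0.0278) and not without the second (2.3, adjusted p = 0.0518).

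Pck1 stood at 3775 CPM and G6pc at 304 CPM in the whole-kidney library of the series, against 764 to 1716 CPM and 90.7 to 152 CPM in 5 control libraries of the type 2 arm. Cyp27b1 had 7.81 CPM in whole kidney, within the 2.06 to 9.17 CPM of those 5 libraries. Of 26 proximal tubule markers, 3 rose in STZ libraries (Ttc36, Pck1 and the organic anion transporter Slc22a8) and 0 fell, with a median log2 change of 0.37. The share called was 11.5%, about that of all genes tested (11.4%). None of the 26 was called by edgeR without STZ 3-week libraries 1 to 3 (median 0.55) or without STZ 24-week libraries 1 to 3 (median -0.07). Slc22a8 was also not called without STZ 3-week library 4 and STZ 24-week library 1 (adjusted p = 0.173). Their summed level was 8844 to 14545 CPM in STZ 24-week libraries, 6791 to 13440 CPM in STZ 3-week libraries, 14450 to 21286 CPM in untreated 24-week libraries and 15850 to 24598 CPM in untreated 3-week libraries. With a tubule marker score as covariate 1945 genes were called in the STZ comparison, against 1861 without it. Usp53, a gene of tight junctions, was among the 8 with the lowest p for the difference of changes, of genes with a mean of at least 10 CPM, through its fall in untreated libraries (log2 change -0.89, adjusted p = 0.00457), while it was not called in STZ libraries (0.14, adjusted p = 0.652).

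**Figure D4:**
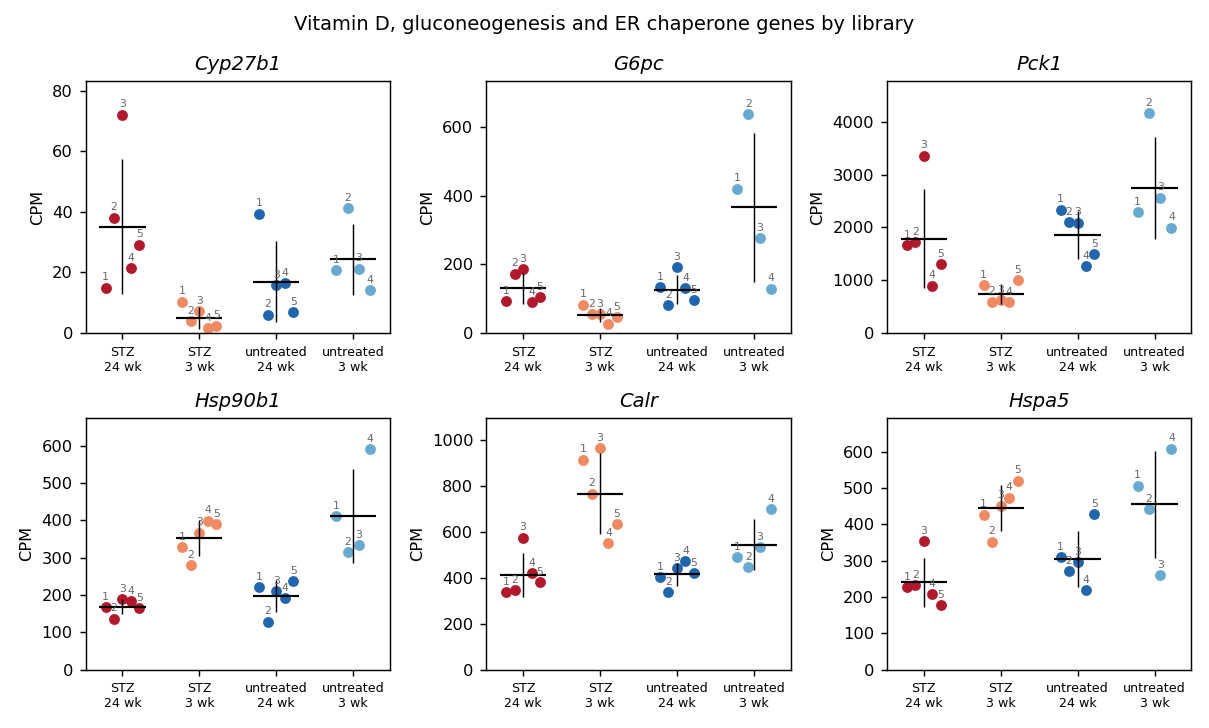
CPM in each library (points, numbered by replicate; bars, mean and SD) of the 4 groups for Cyp27b1, G6pc, Pck1 and the ER chaperones Hsp90b1, Calr and Hspa5. The means of the first 3 are lowest in STZ 3-week libraries, and Hsp90b1 is lower at 24 weeks in both arms.

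Chaperones of the endoplasmic reticulum (ER), where membrane and secreted proteins such as nephrin fold, were lower at 24 weeks. Of 27 genes of the unfolded protein response, 9 fell in STZ libraries (Dnajb9, Hsp90b1, Pdia4, Calr, Pdia6, Atf6, Hspa5, Pdia3 and Canx) and 0 rose, with a median log2 change of -0.35. The share called was 33.3%, against 11.4% of all genes tested. In untreated libraries 3 fell and 1 rose, and the median was -0.29. Hsp90b1, which encodes the chaperone GRP94, had 167, 137, 190, 184 and 165 CPM in STZ 24-week libraries, against 329, 280, 367, 399 and 389 CPM in STZ 3-week libraries (log2 change -1.05, SE 0.17, adjusted p = 0.000451). Its untreated libraries moved as far, with 129 to 237 CPM at 24 weeks and 314 to 590 CPM at 3 weeks (log2 change -1.15, SE 0.18, adjusted p = 0.000957). Hspa5, the master chaperone BiP, was at 228, 233, 355, 209 and 177 CPM in STZ 24-week libraries and at 427, 353, 452, 474 and 521 CPM in STZ 3-week libraries (log2 change -0.87, SE 0.23, adjusted p = 0.0159). The groups touched, since library 3 of 24 weeks lay just above library 2 of 3 weeks. In untreated libraries Hspa5 had a log2 change of -0.66 and was not called (adjusted p = 0.135).

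Dnajb9, a co-chaperone of BiP, had 20.8 to 24.6 CPM in STZ 24-week libraries and 46.6 to 62.3 CPM in STZ 3-week libraries (log2 change -1.15, adjusted p = 0.000328). Its untreated change was -0.37 (adjusted p = 0.324), and the difference between arms had an unadjusted p under 0.05 for 4 of the 27 genes. Calr, the calcium-binding chaperone calreticulin, fell by 0.85 (adjusted p = 0.0018), and Pdia4, a disulfide isomerase, by 1.04 (adjusted p = 0.000828). Atf6, the transcription factor that senses ER stress and switches on chaperone genes, fell by 0.43 in STZ libraries (adjusted p = 0.0147) and by 0.46 in untreated libraries (adjusted p = 0.0311). Without STZ 3-week libraries 1 to 3, 4 of the 27 were called lower and the median was -0.43.

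Promoters of 4 of these genes are shown because they hold the ER stress response element (ERSE), the sequence through which ATF6 is known to act. Capitals mark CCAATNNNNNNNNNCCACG on either strand, which includes a CCAAT box, in the 250 bases before the start (RefSeq, GRCm38.p6). Hspa5 lies at chr2:34771840-34772089 (plus strand), Hsp90b1 at chr10:86705445-86705694 (minus strand), Calr at chr8:84846932-84847181 (minus strand) and Pdia6 at chr12:17266339-17266588 (plus strand).
Hspa5: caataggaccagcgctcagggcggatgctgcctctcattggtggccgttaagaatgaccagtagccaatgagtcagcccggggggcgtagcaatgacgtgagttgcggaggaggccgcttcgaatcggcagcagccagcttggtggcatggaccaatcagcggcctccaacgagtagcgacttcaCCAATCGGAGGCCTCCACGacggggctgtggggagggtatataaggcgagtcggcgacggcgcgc
Hsp90b1: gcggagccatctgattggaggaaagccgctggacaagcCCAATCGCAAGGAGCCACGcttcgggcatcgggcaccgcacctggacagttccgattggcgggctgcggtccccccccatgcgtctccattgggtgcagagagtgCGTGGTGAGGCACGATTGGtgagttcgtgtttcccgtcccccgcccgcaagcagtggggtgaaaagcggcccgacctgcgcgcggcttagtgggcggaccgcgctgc
Calr: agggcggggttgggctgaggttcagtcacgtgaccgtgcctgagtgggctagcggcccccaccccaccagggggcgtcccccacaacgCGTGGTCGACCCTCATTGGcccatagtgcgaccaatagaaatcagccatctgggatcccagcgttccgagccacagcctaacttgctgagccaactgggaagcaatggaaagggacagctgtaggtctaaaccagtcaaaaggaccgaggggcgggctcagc
Pdia6: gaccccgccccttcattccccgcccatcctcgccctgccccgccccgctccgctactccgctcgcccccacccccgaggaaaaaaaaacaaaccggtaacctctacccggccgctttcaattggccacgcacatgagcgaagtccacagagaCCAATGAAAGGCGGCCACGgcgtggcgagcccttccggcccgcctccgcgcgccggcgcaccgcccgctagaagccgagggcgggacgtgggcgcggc
Hsp90b1 holds 2 matches and each of the other 3 holds 1. Of the 8 genes that fell and had a promoter in the table, 5 hold the element, Canx being the fifth, as do 3 of the 16 other members with a promoter. Among all 15666 promoters 21 hold it, which is 0.134%. The list was drawn up from known genes of this response, so a share above that of all promoters is no result of these data. Here too a match describes the letters only.

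Genes of the myosin and spectrin skeleton made up 4 of the 10 largest falls (Myh10, Sptan1, Myh9 and Myo6), and the size of those falls rested on 3 libraries. STZ 3-week libraries 4 and 5 also lay above every STZ 24-week library for all 4 genes. Myh9, the heavy chain of non-muscle myosin IIA, in which mutations cause glomerular disease in people, had 1312, 867, 1134, 1253 and 1467 CPM in STZ 24-week libraries, against 11351, 13855, 10519, 1952 and 3663 CPM in STZ 3-week libraries (chromosome 15, 77760587 to 77842175). Libraries 1 to 3 of the STZ 3-week group were the high ones, and libraries 4 and 5 lay within the untreated 3-week range of 1890 to 6159 CPM. The log2 change was -2.71 (SE 0.42, adjusted p = 0.000263) in STZ libraries and -1.28 (SE 0.42, adjusted p = 0.0903) in untreated libraries. Without STZ 3-week libraries 1 to 3 it was -1.3 and was not called (adjusted p = 0.062). Leaving out these 3 libraries, which keeps only libraries 4 and 5 of the group, also cut the calls over all genes from 1861 to 462. Leaving out STZ 24-week libraries 1 to 3 gave 519 calls.

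Sptan1, the spectrin that lines the inner face of the membrane, had 580, 294, 450, 382 and 408 CPM in STZ 24-week libraries, against 5248, 7901, 5621, 632 and 1425 CPM in STZ 3-week libraries (log2 change -3.22, SE 0.58, adjusted p = 0.00121). The same 3 libraries set the size of its change, which was -1.36 without them (adjusted p = 0.175). Myh10, non-muscle myosin IIB, fell by 3.24 (adjusted p = 0.00322), with a log2 change of -1.65 without the 3 libraries (adjusted p = 0.226). Myo6, the myosin that walks toward the minus end of actin, fell by 1.88 (adjusted p = 0.000472), with -1.04 without them (adjusted p = 0.0778). Actn4, the podocyte actin crosslinker mutated in familial focal segmental glomerulosclerosis, had 326 to 626 CPM in STZ 24-week libraries and 603 to 2765 CPM in STZ 3-week libraries (log2 change -1.84, adjusted p = 0.000451; -0.73 without the 3 libraries, adjusted p = 0.134). Of 34 genes of the actin cytoskeleton and focal adhesion, 6 fell and 1 rose, the scaffold Pxn (log2 change 0.77, adjusted p = 0.00431). These calls were 20.6% of the list, against 11.4% of all genes tested. The 6 that fell had listed lengths of 3805 to 12928 bases. Over all genes tested, the longest were called lower more often than higher in both arms, and the part of gene length was not tested. Without STZ 3-week libraries 1 to 3 none of the 34 was called by edgeR, against 1 without STZ 24-week libraries 1 to 3. Those 3 STZ 3-week libraries also had the lowest shares of 18S ribosomal RNA, 4.56 to 4.93% of counts against 8.34 and 11% in libraries 4 and 5, and the part of this in the result was not tested.

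**Figure D5:**
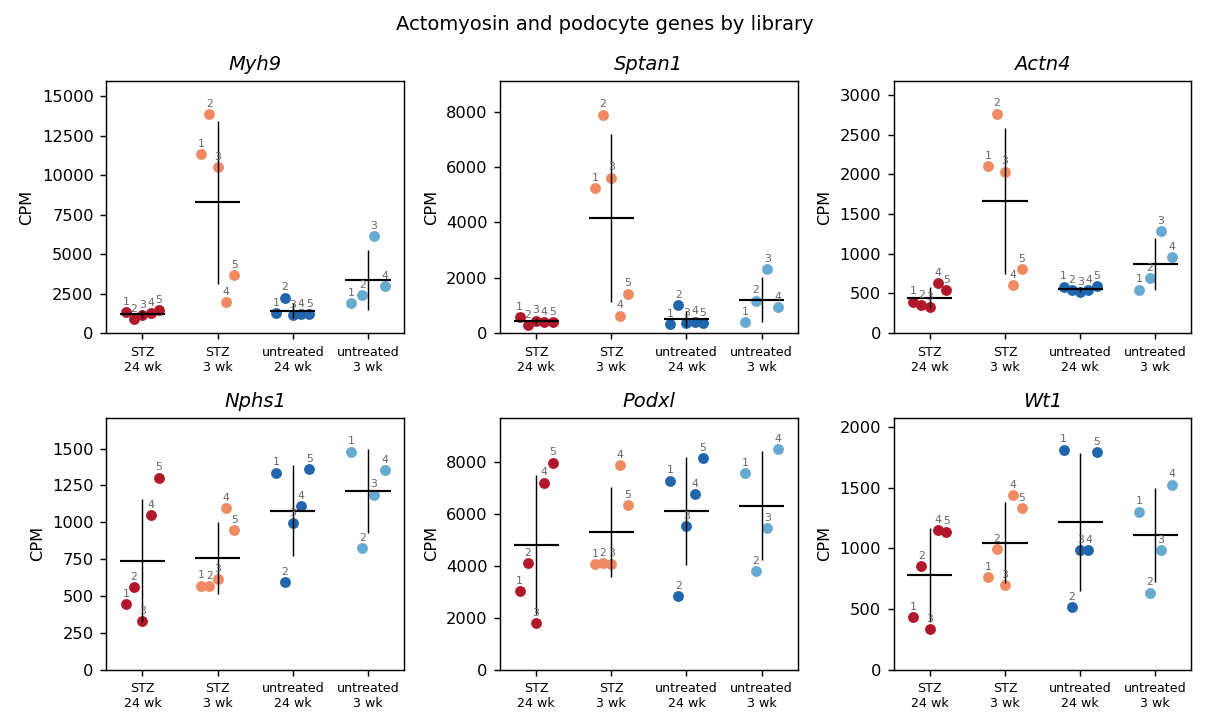
CPM in each library (points, numbered by replicate; bars, mean and SD) of the 4 groups for 3 actomyosin genes and 3 podocyte genes. STZ 3-week libraries 1 to 3 lie far above libraries 4 and 5 for Myh9, Sptan1 and Actn4, and STZ libraries 1 to 3 lie below libraries 4 and 5 for Nphs1 at both times.

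Most podocyte identity genes were not called between the STZ times. Of 42 tested, 1 rose (Trpc6, a calcium channel of the slit diaphragm complex, at 3.37 and 0.557 CPM on average) and 1 fell (Actn4), and the median log2 change was -0.16. The share called was 4.76%, against 11.4% of all genes tested. Nphs1, the gene of the slit diaphragm protein nephrin, had 447, 560, 331, 1051 and 1303 CPM in STZ 24-week libraries, against 570, 566, 616, 1095 and 948 CPM in STZ 3-week libraries (log2 change -0.06, SE 0.31, adjusted p = 0.936). Libraries 1 to 3 were low and libraries 4 and 5 high in both STZ groups. Podxl, the sialomucin of the podocyte surface, spanned 1792 to 7965 CPM and 4072 to 7866 CPM (log2 change -0.16, adjusted p = 0.845). Wt1, the transcription factor of podocytes, spanned 332 to 1150 CPM and 697 to 1441 CPM (-0.44, adjusted p = 0.497), and Synpo, an actin regulator, 1207 to 7424 CPM and 1583 to 3885 CPM (0.50, adjusted p = 0.446). Without STZ 24-week libraries 1 to 3 the log2 change of Nphs1 was 0.6 (adjusted p = 0.371). Rpl10a, a ribosomal protein and the usual carrier of TRAP tags, spanned 70.1 to 178 CPM and 67.2 to 89 CPM and was not called (0.66, adjusted p = 0.139).

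Cytosolic ribosomal protein genes were higher at 24 weeks in both arms. Of 32 tested, 11 rose and 1 fell in STZ libraries (median log2 change 0.24), and 10 rose and 0 fell in untreated libraries (median 0.46). The STZ calls were 37.5% of the list, against 11.4% of all genes tested. Those that rose had listed lengths of 630 to 4685 bases. Over all genes tested, the shortest were called higher more often than lower in both arms. The part of gene length in these rises was not tested. Rps6, whose protein is a target of S6 kinase, had 91.1, 101, 92.5, 138 and 127 CPM in STZ 24-week libraries, against 58.1, 61.9, 79.7, 50.7 and 64.5 CPM in STZ 3-week libraries (log2 change 0.83, adjusted p = 0.000546), and rose by 1.31 in untreated libraries (adjusted p = 2.69e-05). Rps16 rose by 1.25 in STZ libraries and 1.36 in untreated ones, Rpl6 by 0.89 and 0.64, and Rpl11 by 0.63 and 0.66. Of the 32 genes 31 share 50-base words with other genes, 24.6% of their words at the median, and when library totals set the scale 6 rose. With STZ 3-week libraries 1 to 3 left out, 3 rose and 1 fell.

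Genes of mitochondrial respiration were called in both directions. Of 39 nuclear-encoded genes of oxidative phosphorylation, 5 rose and 5 fell in STZ libraries, against 3 and 2 in untreated libraries. The STZ calls were 25.6% of the list, against 11.4% of all genes tested. Genes that rose had listed lengths of 545 to 4912 bases, and those that fell 1287 to 8086 bases. Ndufs1, the largest subunit of complex I, had 87.4, 86.9, 101, 77.4 and 86 CPM in STZ 24-week libraries, against 263, 170, 201, 142 and 182 CPM in STZ 3-week libraries (log2 change -1.09, SE 0.16, adjusted p = 0.000225), and fell by 0.84 in untreated libraries (adjusted p = 0.00807). Uqcrc2, a core subunit of complex III, fell by 0.95 (adjusted p = 0.00114), and Ndufa9, of complex I, by 0.69 (adjusted p = 0.00495). Their untreated changes were -0.59 (adjusted p = 0.0715) and -0.61 (adjusted p = 0.0357). Cox6a1, of cytochrome c oxidase, rose by 0.75 in STZ libraries (adjusted p = 0.00363) and by 0.68 in untreated ones (adjusted p = 0.0256). The list had 0 rises and 1 fall by edgeR without STZ 3-week libraries 1 to 3, and without STZ 24-week libraries 1 to 3 it had 0 rises and 4 falls. Cox6a1 lost its call both times (adjusted p = 0.0827 and 0.1), and Ndufs1 was called both times (adjusted p = 0.0168 and 0.00799).

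Antioxidant genes also split. Of 25 members of the oxidative stress and NRF2 list, 2 rose and 3 fell in STZ libraries, against 0 and 2 without STZ 3-week libraries 1 to 3. With all libraries the share called was 20%, against 11.4% of all genes tested. Nfe2l2, which encodes NRF2 itself, had 56.1 to 93 CPM in STZ 24-week libraries and 94.6 to 212 CPM in STZ 3-week libraries (log2 change -1.08, adjusted p = 0.000758; -0.66 in untreated libraries, adjusted p = 0.0669). Prdx1, a peroxide scavenger and NRF2 target, fell by 1.03 (adjusted p = 0.000649), and Txnrd1, thioredoxin reductase and also an NRF2 target, by 0.72 (adjusted p = 0.00136). Gpx4, the lipid peroxidase that restrains ferroptosis, rose by 0.83 (adjusted p = 0.000334) and by 0.86 in untreated libraries (adjusted p = 0.00151), and 34.7% of its words occur in other genes.

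Genes of lipid and sugar metabolism were called in both directions: 16.7% of the cholesterol list, 14.8% of the fatty acid oxidation list and 19% of the glycolysis list, against 11.4% of all genes tested. Of 24 cholesterol genes 3 fell, namely Nsdhl (-1.03, adjusted p = 0.00243) and Sqle (-0.85, adjusted p = 0.0126), both enzymes of the sterol pathway, and Fdps at 0 to 0.384 CPM in STZ 24-week libraries and 0.0685 to 8.55 CPM in STZ 3-week libraries. Srebf2, the transcription factor that drives this pathway, rose by 0.53 (adjusted p = 0.0178). Of 27 genes of fatty acid oxidation, the peroxisomal thiolases Acaa1a (0.90) and Acaa1b (0.73) rose, while Cpt2, of the mitochondrial carnitine shuttle (-0.60), and the pantetheinase Vnn1 (-0.80) fell. Of 21 glycolysis genes, Pgk1, phosphoglycerate kinase, rose by 1.34 in STZ libraries (adjusted p = 0.000163) and by 1.04 in untreated libraries (adjusted p = 0.00698), with 53.9% of its words shared. Pdk2, which restrains pyruvate dehydrogenase, rose by 0.46 (adjusted p = 0.0202), and the phosphofructokinases Pfkm and Pfkp fell by 0.55 and 0.84 (adjusted p = 0.0182 and 0.0437). The untreated changes were 0.33 for Pdk2, -0.14 for Pfkm and -0.87 for Pfkp, none called. Srebf2 and Cpt2 changed by 0.45 and -0.49 in untreated libraries, without a call. Nsdhl, Sqle, Acaa1a, Acaa1b and Vnn1 changed there by -0.2, -0.07, 0.29, 0.07 and -0.23, also without a call. The cholesterol and glycolysis lists each had 1 rise and 0 falls by edgeR without STZ 3-week libraries 1 to 3, and the fatty acid oxidation list had 0 of either.

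Of 22 genes of TGF-beta signalling and fibrosis, 4 rose in STZ libraries and 0 fell, with a median log2 change of 0.29. The share called was 18.2%, against 11.4% of all genes tested. In untreated libraries 1 rose and 1 fell, with a median of 0.2. A positive change was seen for 14 of the 22 in STZ libraries and for 15 in untreated libraries. Tgfb1, the ligand, had 40.6, 35.5, 25.4, 39.1 and 32.6 CPM in STZ 24-week libraries, against 22.3, 22.8, 27.4, 24.6 and 19.2 CPM in STZ 3-week libraries (log2 change 0.60, SE 0.15, adjusted p = 0.0103), and rose by 0.63 in untreated libraries (adjusted p = 0.0286). The inhibitory Smads rose, Smad7 by 1.00 (adjusted p = 0.00268), with 73.8 to 104 CPM and 37.6 to 54.6 CPM in the STZ groups, and Smad6 by 0.65 (adjusted p = 0.022). Ltbp4, which stores latent TGF-beta in the matrix, rose by 1.17 (adjusted p = 0.00882). None of the 31 genes of interstitial collagen and matrix was called by edgeR in either arm (3 in STZ and 1 in untreated libraries at an unadjusted p under 0.05; 0 by DESeq2 in STZ libraries), and their median was -0.25 in STZ libraries and 0.32 in untreated libraries. Without STZ 3-week libraries 1 to 3 none of these 22 TGF-beta genes was called by edgeR, at a median of 0.64. Without STZ 24-week libraries 1 to 3 the count was 1 and the median 0.02.

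Secreted vascular factors are signals through which podocytes maintain the neighbouring endothelium. Of 23 tested, 4 rose (Vegfb, Pdgfb, Cxcl12 and Pdgfa) and 1 fell (Sema3c, a guidance factor, -0.71, adjusted p = 0.0141) in STZ libraries. These calls were 21.7% of the list, against 11.4% of all genes tested. Pdgfb rose by 0.55 in STZ libraries (adjusted p = 0.034) and by 0.91 in untreated libraries (adjusted p = 0.00648). Vegfb, a vascular growth factor, rose by 0.54 (adjusted p = 0.017), and the chemokine Cxcl12 by 0.59 (adjusted p = 0.0445). Sema3c fell alike in untreated libraries (-0.76, adjusted p = 0.03). The untreated changes of Vegfb and Cxcl12 were 0.08 and 0.46 (adjusted p = 0.849 and 0.221). When library totals set the scale, 1 of the 23 rose. By edgeR 0 rose without STZ 3-week libraries 1 to 3, 0 without STZ 24-week libraries 1 to 3 and 0 with only the STZ groups in the fit. Vegfb and Cxcl12 were also not called without STZ 3-week library 4 and STZ 24-week library 1 (adjusted p = 0.0584 and 0.207).

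Among 19 circadian clock genes, Tef (0.88, adjusted p = 0.00302) and Hlf (0.80, adjusted p = 0.0132), output factors of the PAR bZIP family, rose in STZ libraries, while Clock (-0.60, adjusted p = 0.0101) and Rora (-0.46, adjusted p = 0.0419), parts of the core loop, fell. These calls were 21.1% of the list, against 11.4% of all genes tested. In untreated libraries 0 of the 19 rose and 3 fell, namely Clock (-0.60, adjusted p = 0.0324), its partner Arntl (-3.93, adjusted p = 0.00924) and the repressor Cry1 (-1.87, adjusted p = 0.00457). Rora was not called without STZ 3-week libraries 1 to 3 (adjusted p = 0.161), nor without STZ 24-week libraries 1 to 3, nor without STZ 3-week library 4 and STZ 24-week library 1 (adjusted p = 0.246). Hlf and Clock lost their calls in the last 2 of these sets, in each of which 1 of the 19 rose and 0 fell, and Tef was called in all 3. The time of day at which kidneys were taken was not stated in the labels.

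Markers of other kidney cells were called at 0 to 14.3% of each list in STZ libraries, against 11.4% of all genes tested. In STZ libraries edgeR called 0 of 18 endothelial markers (3 at an unadjusted p under 0.05; 2 by DESeq2), 0 of 16 macrophage and dendritic markers (1; 0) and 0 of 9 parietal epithelial markers (1; 1). Single markers rose in the loop of Henle list (Ppp1r1a, 1 of 10) and the distal convoluted tubule list (Pvalb, 1 of 8). Single markers fell for collecting duct principal cells (Aqp4, 1 of 10), intercalated cells (Atp6v0d2, 1 of 9) and fibroblasts (Gsn, 1 of 11), and 2 of 14 mesangial and smooth muscle markers fell (Ren1 and Myh11). Macrophage markers summed to 145 to 274 CPM in STZ 24-week libraries, 124 to 384 CPM in STZ 3-week libraries, 92.9 to 193 CPM in untreated 24-week libraries and 55 to 108 CPM in untreated 3-week libraries. Of 5 erythroid genes tested 0 were called (1 at an unadjusted p under 0.05; 0 by DESeq2).

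The remaining large rises were in genes at low levels. Ighm, the heavy chain of immunoglobulin M, had 34.4, 34, 12.4, 13.1 and 33.4 CPM in STZ 24-week libraries, against 3.89, 5.48, 4.74, 5.41 and 3 CPM in STZ 3-week libraries (log2 change 2.53, SE 0.46, adjusted p = 0.00103), and it rose alike in untreated libraries (2.77, SE 0.51, adjusted p = 0.00415). Of 15 lymphocyte and plasma cell genes tested, 2 rose (Ighm and Ighg2c), which is 13.3% against 11.4% of all genes tested. The list summed to 263 to 770 CPM in STZ 24-week libraries and 58 to 633 CPM in STZ 3-week libraries. In untreated libraries it summed to 87.2 to 337 CPM at 24 weeks and 63 to 263 CPM at 3 weeks. The part of those cells in the result was not tested. Without STZ 3-week libraries 1 to 3 Ighm was not called (2.52, adjusted p = 0.07). Col27a1, a fibrillar collagen, had 133, 31.7, 30.8, 29.3 and 20.8 CPM in STZ 24-week libraries, against 9.84, 10, 11.2, 6.58 and 11.7 CPM in STZ 3-week libraries (log2 change 2.36, SE 0.46, adjusted p = 0.00253), with 59.6 to 139 CPM and 41.5 to 128 CPM in untreated libraries of 24 and 3 weeks. Without STZ 24-week library 1 and STZ 3-week library 4 its change was 1.47 (adjusted p = 0.00608), and it was not called without STZ 3-week libraries 1 to 3 (2.35, adjusted p = 0.112). Slc17a9, which loads ATP into vesicles, rose by 2.27 (adjusted p = 0.0227), and Pfn3, a profilin, by 1.79 (adjusted p = 0.00361). Slc17a9 was not called without STZ 3-week libraries 1 to 3 (adjusted p = 0.335) or without STZ 24-week libraries 1 to 3 (adjusted p = 0.307). Pfn3 was called without the first set (adjusted p = 0.0359) and not without the second (adjusted p = 0.137).

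Non-coding genes and pseudogenes completed the 10 largest rises. Yam1 rose by 2.62 (adjusted p = 0.00968), with 354 to 736 CPM in STZ 24-week libraries and 47.3 to 134 CPM in STZ 3-week libraries, and the host gene of small nucleolar RNAs Snhg11 by 2.55 (adjusted p = 0.0114). Untreated libraries had 154 to 1359 CPM of Yam1 at 24 weeks and 55.9 to 589 CPM at 3 weeks, where it was not called (adjusted p = 0.275). Yam1 lies on chromosome 17, 39846958 to 39848788. The share of 18S ribosomal RNA was 8.08 to 13.6% of counts in STZ 24-week libraries and 4.56 to 11% in STZ 3-week libraries. The part of ribosomal RNA carry-over in the rise of Yam1 was not tested. The pseudogene Gpr137b-ps rose by 2.05 (adjusted p = 0.0122), and Rpl38-ps2, all of whose words occur in other genes, by 2.11 (adjusted p = 0.0029). Their untreated changes were 0.77 (adjusted p = 0.488) and 1.97 (adjusted p = 0.0199). Rn7s1, a 7S RNA gene whose words are likewise all shared, showed the library split of the mitochondrial copies, with 14.7 to 36.7 CPM over all 24-week libraries and 0.143 to 2.12 CPM over all 3-week libraries. Without STZ 3-week libraries 1 to 3, Yam1, Snhg11, Gpr137b-ps and Rpl38-ps2 were not called (adjusted p = 0.114, 0.247, 0.152 and 0.0869). Without STZ 24-week libraries 1 to 3, the first 3 of these were not called either (adjusted p = 0.223, 0.144 and 0.0689). The Y-linked genes Uty, Ddx3y and Eif2s3y fell in STZ libraries (-0.85, -0.83 and -1.03; adjusted p = 0.00175, 0.0106 and 0.0232) and were present in every library. These were 3 of 4 sex-linked genes tested (75%, against 11.4% of all genes tested). Without STZ 24-week libraries 1 to 3 none of the 3 was called (adjusted p = 0.0735, 0.52 and 0.216). Without STZ 3-week libraries 1 to 3 Ddx3y was called (adjusted p = 0.047), and Uty and Eif2s3y were not (adjusted p = 0.139 and 0.371). Xist was at most 0.637 CPM in all 19 libraries, the level of male tissue.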

How the data were processed

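The deposited table holds raw counts per gene, and a second one FPKM, for 32108 genes; per the submitters' processing notes, cutadapt 1.16, STAR, FastQC and featureCounts 1.15.2 were used. In all FPKM values over 1 (100%), the deposited FPKM equalled count over listed length and library total within 1%. The notes name mm9, but 99.98% of 31846 genes matched by identifier to GENCODE M21 overlapped their place on GRCm38, so positions are on GRCm38. Whether counting used strand is not stated in the labels, so overlapping genes and close copies can share reads.

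Counts went into edgeR 4.0.16 under R 4.3.3 (TMM, filter on low counts by group, robust quasi-likelihood test, 19 libraries). Sequence sharing is the percent of a gene's 50-base words, over its GENCODE M21 transcripts, that occur in another gene. Alternatives used DESeq2 1.42.0, limma 3.58.1 on log2(FPKM + 0.1), other scalings, filters and library sets. The steps were tested on simulated data, and plots drawn with matplotlib 3.10.9 under Python 3.11.15.

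The libraries, 37 gene lists (789 of 792 entries found in the table) and the rule for named genes were chosen with earlier results of these data known. Genes named are the 10 largest called rises and falls with a mean of at least 10 CPM and groups that did not overlap (leaving out names such as Gm plus digits), up to 4 called genes by lowest p for lists holding at least 3, the 8 with the lowest p for the difference between arms among genes with a mean of at least 10 CPM over the 19 libraries, and checks of podocyte, ribosome and sex genes. Other genes (mt-Nd1, mt-Cytb, mt-Nd3, Gm10925, Gm25732, Hspa5, Cdkn1a, Trpc6, and remaining called members of lists) were chosen after their values were seen.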

Additional observations from a re-analysis of the deposited data

Results flagged for a closer look

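Of 380 combinations of a named gene and a group, 25 had 1 library far from the rest, judged by its gap to the nearest library over the group's range; chance flags about 1 group in 20. No explanation is offered.

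In STZ 24-week libraries, library 1 was high for Col27a1 (133 CPM, next 31.7), Slc17a9 (36.3, next 17.3) and Pfn3 (43.1, next 19.6). Library 2 was low for Myo6 (369 CPM, next 503), library 3 high for Plk2 (21.1, next 15.2) and library 5 high for Usp53 (126, next 85.3). In STZ 3-week libraries, library 4 was high for Slc17a9 (9.52 CPM, next 3.09), and library 1 was high for Top2a (33.9, next 21.2) and low for Pxn (165, next 197).

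Among untreated 24-week libraries, library 2 was high for Myh10 (429 CPM, next 186), Sptan1 (1018, next 416), Myh9 (2242, next 1257) and Myo6 (681, next 536), and low for Cox6a1 (156, next 231), Vnn1 (23.6, next 31.8) and Gpx4 (162, next 233); it also had the highest share of 18S ribosomal RNA of the 19 libraries, 18.4% of counts. Library 4 was high for Mki67 (18.1 CPM, next 8.62) and library 5 for Nfe2l2 (75.2, next 56). Among untreated 3-week libraries, library 2 was high for Yam1 (589 CPM, next 131) and low for Rps16 (30.5, next 62.8), and stood alone above 0 for Eda2r at 0.0663. Library 4 was high for Pdia4 (258 CPM, next 138) and alone above 0 for mt-Co2 and mt-Atp6, at 0.209 each, and library 1 was high for mt-Nd4l (1.41, next 0.0524).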

How the results depend on the processing

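For the STZ comparison, leaving out 1 library at a time gave 1282 (without STZ 3-week library 1) to 2031 calls against 1861. Restricting the test to 8041 genes at least as high in TRAP libraries as in whole kidney gave 1185 calls. Alternatives chosen after seeing the data gave 882 calls among 8787 genes sharing no word, 462 without STZ 3-week libraries 1 to 3 and 519 without STZ 24-week libraries 1 to 3. The gene restrictions test fewer genes and the other settings use fewer libraries. The untreated count of 603 was 365 to 799 with 1 library left out, 1258 with DESeq2, 368 without a filter, 392 at a mean of at least 10 CPM, 291 with only those 2 groups, 1206 with all 36 TRAP libraries, 361 with the kidney restriction, 215 for genes sharing no word and 929 without STZ 3-week library 4 and STZ 24-week library 1; the cause was not tested. The untreated libraries whose removal moved the untreated count by over 1.5 times were 3-week 3 (365) and 4 (401) and 24-week 1 (393), 3 (388) and 4 (374). The difference between arms, 0 by edgeR, was 0 to 3 with 1 library left out, 64 with DESeq2, 4 with limma on FPKM and 14 with all 36 libraries.

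Replicate numbers were not taken to pair libraries: same-numbered STZ libraries correlated at 0.0313 to 0.255 in their deviations and other pairs at -0.224 to 0.246, with 4 of 5 correlating best with their own number. With the replicate block the counts were 2051, 597 and 0, and the podocyte list had 1 rise and 4 falls (median -0.22) against 1 and 1.

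Across the named genes, 2909 alternative values kept direction and side of the threshold, 261 lost the call, 7 gained it and 16 changed sign, all of genes not called: Nphs1 (0.1 with the tubule score; 0.3 and 0.6 with sets of libraries left out; -0.34 to 0.15 with 1 left out), Podxl (0.04 with the score; 0.22 and 0.48; -0.39 to 0.08), Wt1 (0.09), Synpo (-0.07) and Usp53 (-0.01 to 0.22). Reads carry no molecular identifiers, so depth covers counting error only.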

Other observations

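Androgen-dependent tubule genes summed to 372 to 944 CPM in STZ 24-week libraries and 492 to 1232 CPM in STZ 3-week libraries, against 2867 to 5729 CPM in untreated 24-week libraries and 3211 to 5951 CPM in untreated 3-week libraries. None of the 13 was called by edgeR between the times in either arm (2 in each at an unadjusted p under 0.05; 0 by DESeq2 in STZ libraries), at a median log2 change of -0.3 in STZ libraries and -0.4 in untreated libraries. Complement and inflammation genes summed to 1212 to 2267 CPM and 1512 to 2282 CPM in the STZ groups, against 485 to 1426 CPM and 514 to 614 CPM in untreated libraries of 24 and 3 weeks; of 28 tested, 1 rose in STZ libraries (C1ra, a complement protease) and 0 were called in untreated libraries (6 at an unadjusted p under 0.05). Of 32 interferon-induced genes 2 fell (Ifih1 and Ifit2), and of 21 antigen presentation genes edgeR called 0 (1 at an unadjusted p under 0.05; 0 by DESeq2). Of 23 basement membrane and receptor genes 1 rose (Ddr1), and of 25 immediate-early and heat shock genes Jund rose and Hsp90aa1 fell. Each of these lists had 0 to 8% of its members called in STZ libraries, against 11.4% of all genes tested.

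Of 24 insulin and IGF signalling genes (8.33% called, against 11.4% of all genes tested), 2 rose and 0 fell in STZ libraries. These were Igfbp4 and Igfbp2, binding proteins of the insulin-like growth factors, which rose by 1.5 (adjusted p = 0.000234) and 2.41 (adjusted p = 0.0171), with means of 419 and 23.1 CPM in STZ 24-week libraries against 152 and 4.3 CPM in STZ 3-week libraries. Their changes in untreated libraries were 0.55 and 0.11 (adjusted p = 0.214 and 0.957). Ren1, which encodes renin, fell by 1.45 in STZ libraries (adjusted p = 0.00268), at a mean of 12.7 CPM after 24 weeks and 35.6 CPM after 3 weeks, and its untreated change was -0.42 (adjusted p = 0.527).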
